A study of Schizosaccharomyces pombe with 24 samples.

Results

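The first 4 h of phosphate starvation in fission yeast (Schizosaccharomyces pombe) cells that lack the transcription factor gene pho7 were examined by comparing 3 pho7Δ libraries taken 4 h after transfer to phosphate-free medium with 3 pho7Δ libraries taken before the transfer. These are 6 of the 24 libraries of the series, and all of their members were found through the sample labels. The 0 h cells were in log phase in YES, a rich medium based on yeast extract, and the 4 h cells had been moved to ePMGT(-PO4), a defined glutamate medium with thiamine and no phosphate. The step therefore combines a change of medium with the loss of phosphate, and the share of each cannot be told apart from these groups alone. All 6 libraries came from 1 strain, AGP83, of mating type h-, in which natMX, a nourseothricin resistance cassette, replaces pho7, and the study's strain list gives this strain and the wild type (WT) mutations in ura4, leu1, his3 and ade6. No WT group at 4 h without phosphate belongs to the comparison, so nothing below says how much of a difference depends on the missing Pho7. WT in log phase in YES, also 3 libraries, and pho7Δ at 8, 12, 24, 36 and 48 h serve only as reference points.

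The tables hold 1 value per gene and group, the authors' average of normalized read counts over the 3 libraries, and every value below written as an average is of that kind. Where a gene is given a single ratio, in parentheses or in running text, it is the log2 ratio of the 4 h over the 0 h average, and the median of a gene group is the median of these ratios. Without values per library there is no SD, no test and no replicate check, so a gene is called higher or lower from size alone, when its averages differ 2-fold or more and the larger is 100 or more, with none of the study's further criteria. Of 6987 genes in the tables, 5520 had an average of 100 or more in at least 1 of the 2 groups and are called measured. An average is a share of the poly(A)+ RNA of a culture, so fewer transcripts per cell and fewer cells that make them cannot be told apart, and averages are compared here within a gene, apart from shares of the summed averages, in which genes with many reads weigh most.

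In fission yeast, phosphate is taken up by plasma membrane transporters and released outside the cell by secreted phosphatases and nucleotidases, while surplus phosphate is stored in the vacuole as polyphosphate made by the VTC complex. Pho7 is a zinc-cluster protein that binds the promoters of pho1, pho84 and tgp1 and activates them when phosphate runs out, and each of these genes is also repressed in rich medium by transcription of a long noncoding RNA that starts upstream. Nutrient limitation in yeasts lowers the making of ribosomes, the main sink of cellular phosphorus in RNA, and favours recycling of cell material.

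After 4 h, genes of phosphate acquisition, of arginine and agmatine breakdown and of amino acid uptake stood higher in pho7Δ, and genes of the ribosome stood lower. In all 335 measured genes were called higher (6.07% of 5520) and 254 lower (4.6%), together 10.7%. A difference of 4-fold or more was seen in 76 genes on the higher side and in 16 on the lower side, so the increases were larger in size than the decreases. The median log2 ratio was 0.01, and the middle 95% of genes lay between -1.18 and 1.61. The 252 protein-coding genes called higher were 5.17% of 4874 measured and the 195 called lower 4%. For noncoding RNA genes, of which 620 were measured, the counts were 81 (13.1%) and 55 (8.87%). Many genes sat close to the 2-fold line, with 85 at log2 ratios of 1 to 1.2 and 155 at 0.8 to 1, and on the lower side 124 at -1.2 to -1 and 184 at -1 to -0.8.

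**Figure D1:**
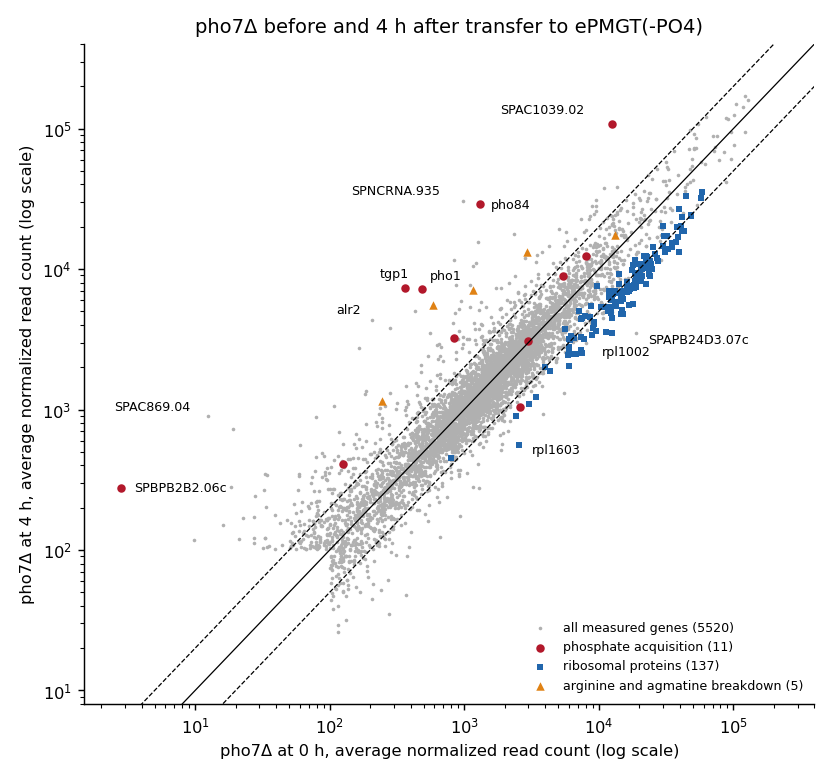
Average normalized read count at 4 h (vertical, log scale) against 0 h (horizontal, log scale) in pho7Δ for 5520 measured genes, 1 point a gene, with the solid line at equality and dashed lines at 2-fold. Phosphate acquisition genes such as pho84 (1313 to 29152) lie far above the line, and the 137 ribosomal protein genes form a band below it.

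This first step was the largest of the course. Against the group just before, 203 genes were called at 8 h (3.66% of 5549 measured). The following steps gave 51 genes for 12 h (0.912%), 117 for 24 h (2.07%), 12 for 36 h (0.213%) and 4 for 48 h (0.0711%). The median absolute log2 ratio was 0.321 for the first step and 0.0698 for the last, where 95% of genes moved by 0.253 or less. The last 2 steps are thus the quietest of the course. They compare late starved cultures in 1 medium, so they do not measure how far averages of 3 libraries differ between 0 h and 4 h. Neighbouring steps share a group, so their counts are not independent of each other.

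The deletion was checked first. The average of pho7 was 3147 in WT, 833 in pho7Δ at 0 h and 514 at 4 h, so reads assigned to the locus remained in the deletion strain at both times. Among the other markers ura4 is listed at 0 in every group, ade6 went from 4363 to 5339.7, leu1 from 8118 to 9898 and his3, which lies mostly opposite alg2, from 245 to 339. None of the 4 measured genes among these was called. Of the genes that define h- cells, mat1-Mc and mat1-Mi are listed at 0 in both groups, while mfm2 (1576 to 4536) and mam2 (376 to 1149), which M cells express, were present. The markers of P cells, the opposite mating type, were present as well, namely map2 (275 to 134), map3, map1 and sxa1. Presence at these averages therefore does not tell the mating type.

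Genes of phosphate acquisition held 4 of the 12 largest increases among coding genes, with 7 of 11 measured members higher and 1 lower, and a median log2 ratio of 1.95 against 0.01 for all genes. Among the transporters, pho84 had an average of 1313 at 0 h and 29152 at 4 h, a log2 ratio of 4.47. The glycerophosphodiester transporter gene tgp1 went from 366 to 7281 (4.32). These 2 genes began below WT, whose averages were 3790.1 and 992, and ended the first 4 h above it. The transporter gene pho842 (SPAC23D3.12) went from 125 to 407 (1.70), still far under the WT average of 3002. Smaller differences, short of 2-fold, were listed for the transporter gene pho841 (SPBC1683.01), with 5377 and 8909, and for the mitochondrial phosphate carrier gene SPBC1703.13c, with 7972 and 12360.2. The plasma membrane transporter gene pho843 (SPCC2H8.02) had 2612 at 0 h and 1049.9 at 4 h, a log2 ratio of -1.32, the single member called lower.

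The enzymes that free phosphate outside the cell were higher as well, apart from pho4. The secreted acid phosphatase gene pho1 went from 487 to 7154 (3.88), where WT in rich medium had 1701. By contrast pho4, the acid phosphatase gene that thiamine represses, was listed at 2959.6 and 3062. The predicted extracellular 5'-nucleotidase genes, whose products cleave nucleotides to nucleoside and phosphate, covered a wide range. SPBPB2B2.06c started at 2.82 and reached 275, the largest log2 ratio of any coding gene at 6.61, though its size depends on the very low starting average. SPAC1039.02 went from 12501 to 108603 (3.119), having stood at 738 in WT. The related SPAC17G6.03 went from 835 to 3221, but it lies wholly opposite cpp1, whose reads may be part of its values. Together the 11 genes made up 0.189% of all averages at 0 h and 0.973% at 4 h, with SPAC1039.02 alone holding 36.2% and 59.8% of the 11-gene sum.

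For most of these genes 4 h was an early point of the climb. By 8 h pho1 had an average of 26149 and pho84 of 49277, their 48 h values were 39014 and 69715, and SPBPB2B2.06c reached 5048 at 12 h. SPAC1039.02 peaked at 8 h with 191924. The row SPBC8E4.02c, which RefSeq gives as a synonym of prt2, a long noncoding RNA upstream of pho84, was listed at 1521 in WT, 210.2 at 0 h and 139 at 4 h, a difference short of 2-fold between the last 2 values. The long noncoding RNAs upstream of pho1 and tgp1 were not analysed here.

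The sequences upstream of the 4 phosphate acquisition genes with the largest log2 ratios are shown because the published Pho7 site can be looked for there. Each run is the 250 bases before the annotated transcript start, 5′ to 3′ on the gene's strand, read from RefSeq's ASM294v3 assembly, and capitals mark matches to the published Pho7 site, which 83 of 4478 upstream windows of measured coding genes contain (1.85%). The windows lie at II:4443851-4444100 (+) for pho84, II:352412-352661 (-) for tgp1, II:4447256-4447505 (+) for pho1 and II:4471165-4471414 (-) for SPBPB2B2.06c.
pho84: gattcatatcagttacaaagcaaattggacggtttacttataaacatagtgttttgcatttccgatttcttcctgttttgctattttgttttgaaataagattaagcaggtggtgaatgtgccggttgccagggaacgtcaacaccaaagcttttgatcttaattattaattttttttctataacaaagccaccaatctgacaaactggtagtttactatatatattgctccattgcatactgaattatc
tgp1: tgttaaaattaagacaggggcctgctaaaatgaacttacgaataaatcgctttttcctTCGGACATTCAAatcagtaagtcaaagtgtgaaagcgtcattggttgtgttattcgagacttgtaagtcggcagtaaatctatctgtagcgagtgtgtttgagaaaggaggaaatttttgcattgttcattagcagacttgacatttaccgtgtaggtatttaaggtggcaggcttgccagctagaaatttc
pho1: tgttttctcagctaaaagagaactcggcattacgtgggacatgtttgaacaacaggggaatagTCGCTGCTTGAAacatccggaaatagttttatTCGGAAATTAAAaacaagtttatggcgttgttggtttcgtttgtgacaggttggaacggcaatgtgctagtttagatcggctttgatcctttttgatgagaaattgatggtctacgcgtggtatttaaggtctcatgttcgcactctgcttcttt
SPBPB2B2.06c: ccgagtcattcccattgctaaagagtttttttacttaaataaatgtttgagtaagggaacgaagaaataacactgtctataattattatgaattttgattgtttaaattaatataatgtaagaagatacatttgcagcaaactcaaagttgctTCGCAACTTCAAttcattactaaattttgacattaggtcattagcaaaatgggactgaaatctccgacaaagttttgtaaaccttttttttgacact
The matches begin 192 bases before the start of tgp1, 187 and 155 before that of pho1 and 97 before that of SPBPB2B2.06c. The window of pho84 holds none, but the study reports a mapped Pho7 binding site further upstream of pho84 than this window reaches. For SPBPB2B2.06c the study's supplement places the transcript start further downstream than the annotation used here. It marks candidate Pho7 sites at other places upstream of that gene. Of the 11 phosphate acquisition genes 5 have a match in their window (45.5%), as do 10 of 206 windows of coding genes called higher (4.85%) and 3 of 171 of those called lower (1.75%). The published site was located by footprinting in the pho1 and tgp1 promoters, so matches there were given in advance. Both genes count among the 5 and among the 10. These letters describe the DNA only.

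**Figure D2:**
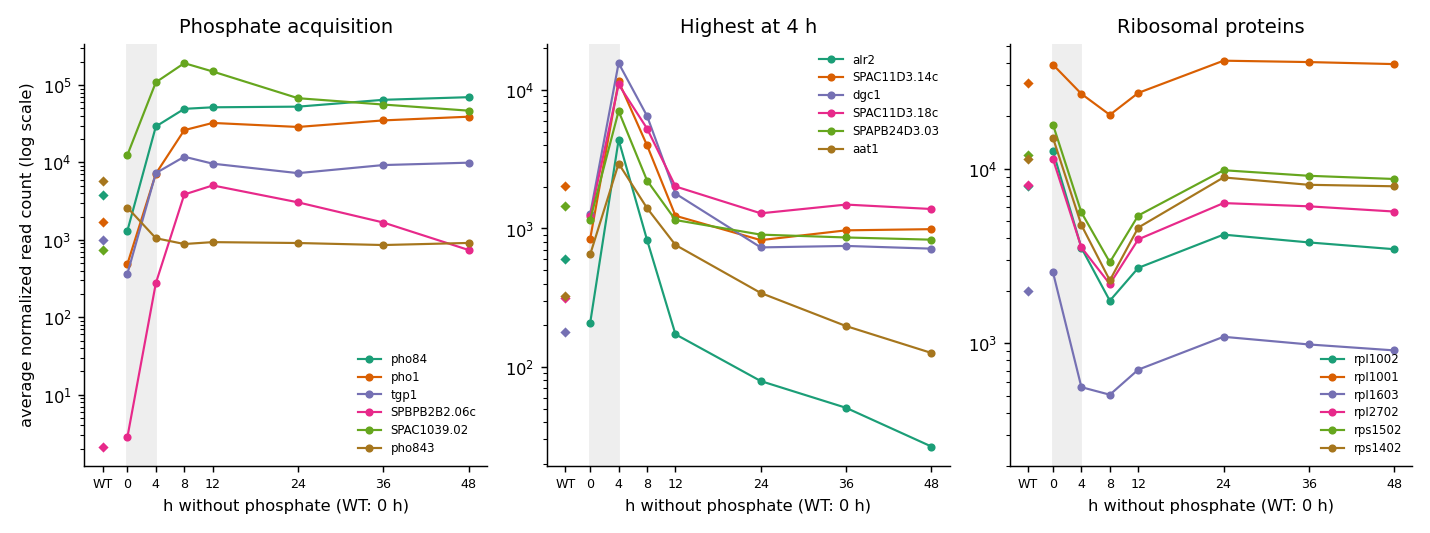
Average normalized read count (log scale) against hours without phosphate in pho7Δ, with the first 4 h shaded and WT at 0 h as a diamond at the left. The 5 phosphate acquisition genes plotted beside pho843 go up in the shaded step and further at 8 h, the genes of the middle panel are highest at 4 h (alr2 208 to 4368, then 26.6 at 48 h), and the ribosomal protein genes are lowest at 8 h.

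Phosphate storage followed acquisition at a smaller scale, with 4 of 7 measured genes higher, 0 lower and a median log2 ratio of 1.10. The VTC complex genes vtc4, whose product makes polyphosphate, and vtc2 went from 2512 to 6841 (1.45) and from 5581 to 11989 (1.10). The VTC regulator gene nrf1 had 3501 and 9231 (1.40), and pho8, the vacuolar alkaline phosphatase gene, 2324 and 5409.9 (1.22). Enzymes that break polyphosphate down were not called, with log2 ratios of 0.77 for SPBC713.07c, 0.30 for SPCC1840.07c and -0.66 for the exopolyphosphatase gene ppx1. In phosphate signalling 2 of 8 genes were higher and 0 lower. These were SPCC1827.07c, which encodes a protein with the phosphate-sensing SPX domain, from 694.7 to 2218 (1.67), and asp1, the kinase and pyrophosphatase of inositol pyrophosphates that signal phosphate status, from 1918 to 4585 (1.26). The inositol polyphosphate phosphatase gene SPBC21H7.03c was at 0.86 and the metal-dependent phosphatase gene duf89 (SPCC1393.13) at 0.65, both short of 2-fold.

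A list of 19 genes that need Pho7 in starved cells comes from the study. In the deletion strain 12 of the 16 measured ones were higher at 4 h and 0 were lower, with a median log2 ratio of 1.31, and since the study chose the list on these samples it is not independent evidence of a direction. Beside the phosphate genes above, SPBPB2B2.05, of the class I glutamine amidotransferase family, went from 27.9 to 243 (3.118), mfm1, a gene for the mating pheromone M-factor, from 90.6 to 468 (2.37), and the glyceraldehyde 3-phosphate dehydrogenase gene gpd3 from 5487 to 14564 (1.41). Lesser increases were listed for the aldehyde dehydrogenase gene atd1 (1.22), rgs1, a regulator of pheromone signalling (1.17), the stress-responsive gene sro1 (1.17) and SPBC25B2.08 (1.13). Uncalled members were the peroxiredoxin-like gene pmp20 (0.70), SPAC27D7.11c (0.32), SPAC4H3.08 (-0.20) and SPAC26F1.11 (-0.30). The transporter genes str3 (3.52 to 26.2), tna1 (39.4 to 66.5) and cta3 (47.0 to 55.6) stayed under the minimum of 100.

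Each of the 3 ecl genes, whose overexpression prolongs survival in stationary phase, was higher at 4 h than at 0 h in pho7Δ. From low beginnings ecl3 went from 9.73 to 118 and was at 828 by 48 h. Its paralogs stood at 1329 and 4034 (1.60) for ecl1 and at 2203 and 5783 (1.39) for ecl2, which had its highest average of the course at 4 h. WT in rich medium had 4.51 for ecl3, 1207 for ecl1 and 3915 for ecl2, so ecl2 began below WT in pho7Δ. At 4 h the log2 ratios over WT were 4.71, 1.74 and 0.56 in this order, the last short of 2-fold. The study measured starved pho7Δ cells against unstarved WT and describes ecl2 expression as unaffected in them. Of 4 transcription factor genes picked by the study for lower levels without Pho7, none was called here. The log2 ratio was -0.68 for mbx1, which encodes a MADS-box factor, and -0.56 for prz1, the calcineurin-responsive factor. The bZIP gene atf31 had averages of 103 and 78.3, and the meiotic factor gene cuf2, with 12.7 and 10.9, was under the minimum. This list too was chosen on these samples.

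**Figure D3:**
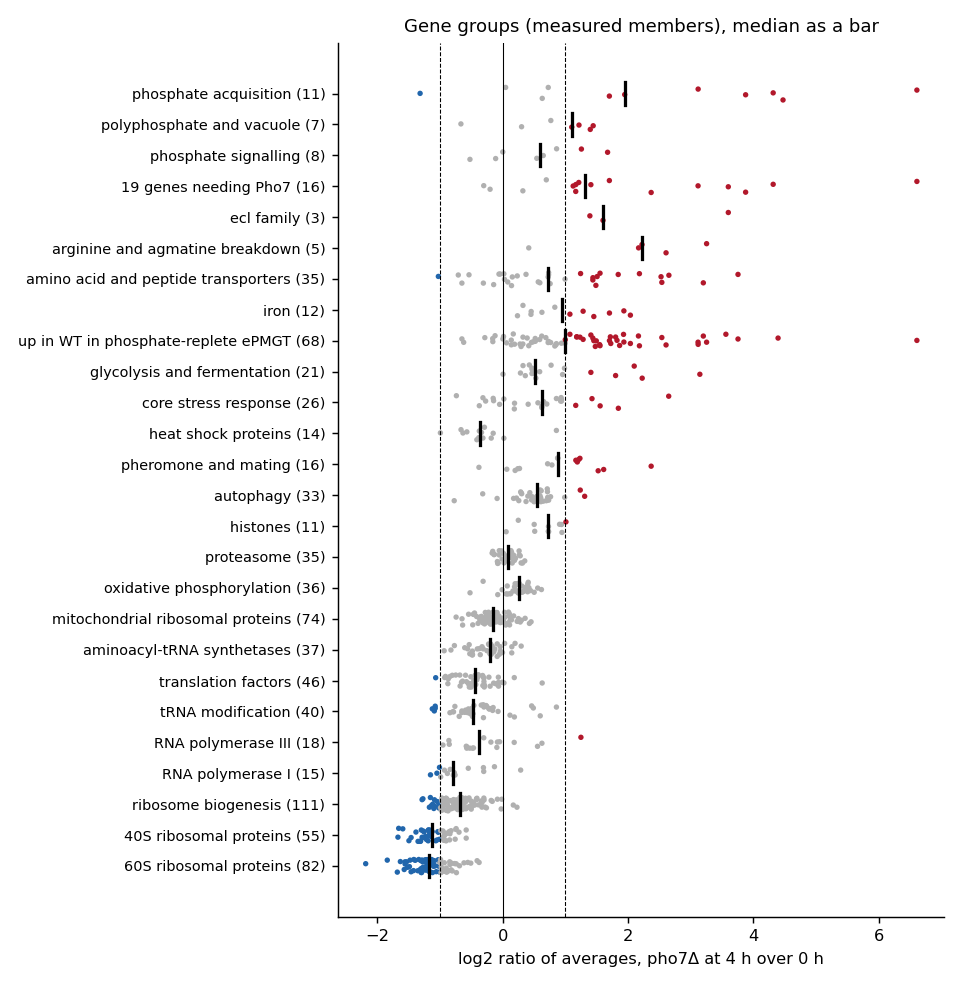
Log2 ratio of the averages at 4 h over 0 h in pho7Δ (horizontal) for the measured members of 26 gene groups, 1 point a gene, red where 2-fold or more higher, blue where 2-fold or more lower and grey otherwise, with a black bar at the group's median and the number of measured members in parentheses. Arginine and agmatine breakdown (median 2.22) and phosphate acquisition (1.95) lie furthest to the right, 60S and 40S ribosomal proteins (-1.17 and -1.12) furthest to the left.

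Genes that break down arginine and its product agmatine were among the clearest increases, with 4 of 5 measured members higher, 0 lower and a median of 2.22. The arginase gene car1 had 586 at 0 h and 5590.3 at 4 h (3.25). Predicted agmatinases, which release urea from agmatine, followed with 1157 and 7050 for SPAPB24D3.03, 245 and 1143 for SPAC11D3.09 and 2928 and 13170.2 for SPBC8E4.03, at log2 ratios of 2.61, 2.22 and 2.17. The ornithine transaminase gene car2, the next enzyme after arginase, was at 0.42 and not called. Of the 4 called, car1 and SPAPB24D3.03 are on the study's list, described below, of genes higher in WT in ePMGT with phosphate. Also among the 12 largest coding increases, SPAC869.04, a formamidase-like gene, went from 12.4 to 898 (6.18), and its neighbour SPAC869.03c, a predicted urea transporter gene, from 19.3 to 729 (5.24). Both were lower in pho7Δ than in WT at 0 h, where WT had 360 and 282, and above WT at 4 h.

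Uptake of amino acids and peptides gave 13 higher and 1 lower of 35 measured genes, with a median of 0.73. The largest were SPBPB2B2.01, a predicted amino acid transporter gene, from 282 to 3806 (3.75), and opt3, an oligopeptide transporter gene, from 60.4 to 556 (3.20). The predicted cysteine transporter gene SPCPB1C11.03 and the predicted permease gene SPCC794.03 stood at 2.65 and 2.54. Both SPBPB2B2.01 and SPCC794.03 are on the list of genes higher in WT in ePMGT with phosphate. The exception was SPBC1652.02, another predicted transporter gene, at -1.02. Amino acid transporters as a class were thus split between strong increases and little difference, since 21 of the 35 were not called. The group of 9 genes whose products name spermidine showed 0 higher and 2 lower, SPBC36.01c (738 to 238) and srm1, the spermidine synthase gene (10748 to 4471).

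Other genes among the 12 largest coding increases act on amino acids and organic acids. They were alr2, an alanine racemase gene (208 to 4368, 4.39), SPAC11D3.14c, a 5-oxoprolinase gene (843 to 11552, 3.78), dgc1, a D-glutamate cyclase gene (1267 to 15644, 3.63), and SPAPB1A11.03, a predicted cytochrome b2 gene (164 to 2737, 4.06). SPAPB1A11.03 lies wholly opposite mca1, and the other 3 lie over more than 50% of their length opposite annotated antisense RNAs. At 12 h SPAPB1A11.03 was still at 2072, while alr2 was at 172, SPAC11D3.14c at 1234.8 and dgc1 at 1786.

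To set the change of medium beside these differences, a list of the study was used. It holds 72 genes 2-fold or more higher in WT cells at repeated time points after transfer to ePMGT with phosphate. Here 68 of them were measured, 34 were higher (50%), 0 were lower and their median was 1.00. They made up 33 of the 252 coding genes called higher (13.1%) and 13 of the 58 at 4-fold or more. The other 219 coding genes called higher are not on the list, which does not show them to be unaffected by the medium. The list rests on the study's own criteria in WT, not on the calls used here. In pho7Δ at 0 h its measured members already stood at a median log2 of 1.19 over WT. Of the 12 largest coding increases 3 are on the list, namely SPBPB2B2.06c, alr2 and SPBPB2B2.01. Members named above also include SPAC1039.02, car1, SPAPB24D3.03, SPCC794.03, gpd3, SPBPB2B2.05, SPAC27D7.11c, tna1 and cta3. For SPBPB2B2.06c and SPAC1039.02 the study reports smaller increases in WT with phosphate than without it. Iron uptake had 6 of 12 measured members higher and 0 lower, among them the iron permease and oxidase genes fip1 (256 to 1052, 2.04) and fio1 (87.2 to 333, 1.93), the ferric reductase gene frp1 (1.70) and the mitochondrial iron transporter gene mmt1 (1.46). All of these named iron genes are on the list as well.

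Uracil catabolism, hexose uptake and thiamine synthesis moved less. Of 5 uracil catabolism genes 1 was higher, the uridine hydrolase gene urh1 (3399 to 11242, 1.73), and urg1, urg3 and uck2 were at 0.28, 0.06 and 0.49 on averages that had been well above WT before the transfer (median log2 of 0 h over WT 3.27). Of 6 measured hexose transporter genes, ght3 (161 to 449) and ght4 (1564 to 3553) were higher, ght1 was at 0.90 and the high-affinity gene ght5 at -0.16. The genes urh1, urg1, urg3, uck2, ght3, ght4 and ght5 are on the list of genes higher in WT in ePMGT with phosphate. None of 7 thiamine genes was called, with nmt1 at -0.19 and bsu1, a vitamin B6 importer gene, at 0.72.

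Carbon metabolism and stress genes leaned higher. All 21 measured genes of glycolysis, gluconeogenesis and fermentation had ratios above 0 (20 with averages scaled to equal totals), with a median of 0.52, and 5 were called higher. These were fbp1, the gluconeogenic fructose bisphosphatase gene, wholly opposite its own antisense RNA (867 to 7679.9, 3.15), the pyruvate decarboxylase gene pdc201 (2.23), the enolase gene eno102 (1709 to 7323), the glucose dehydrogenase gene gcd1 (1.803) and gpd3. Both gcd1 and gpd3 are on the list of genes higher in WT in ePMGT with phosphate. Before the transfer fbp1 was below WT (6741), and at 4 h it was close to that value. Of 26 core stress genes 5 were higher and 0 lower, with a median of 0.63, among them isp3 (2.65), a spore wall gene that stress also induces, gld1 and dak1 of glycerol and dihydroxyacetone use (1.85 and 1.56) and rds1 (1.43), which lies mostly opposite another gene. Heat shock protein genes did not share this, since 0 of 14 were called and the median was -0.35, with hsp9 at 0.86, the chaperone genes mas5 at -0.99 and sks2 at -0.66 and hsp10 at -0.63.

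Genes of pheromone and mating were higher in 7 of 16 measured cases and lower in 0, with a median of 0.88. This list holds genes of M cells together with genes of the pheromone pathway that are not particular to M cells. The M-factor genes mfm1 and mfm2 were at 2.37 and 1.52, the P-factor receptor gene mam2 at 1.61 and spk1, the MAP kinase gene of the pheromone pathway that lies mostly opposite hem4, at 1.23. The rise of mam2 left it below the WT average (1149 against 3170.4), whereas mfm2 was above WT at both times (569.2 in WT). Among markers of P cells, the opposite mating type, 0 of 4 were higher and 1 was lower, map2 (275 to 134), and map3, which lies opposite another gene, map1 and sxa1 were at 0.55, 0.71 and -0.29. Regulators of sexual differentiation had 1 of 12 called, mei2, the RNA-binding switch protein of meiosis (2163 to 8001, 1.89). The gene of the factor that drives mei2, ste11, was just short of 2-fold (2192 to 4367, 0.99), pat1 was at 0.90 and toc1 at 0.58. Meiotic genes were split, with 11 higher and 4 lower of 51 measured and a median of 0.07. The septin gene spn5 (2.54), the eisosome gene pil2 (2.19) and the dynein light chain gene dli1 (1.95) were higher.

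Autophagy genes moved together but little. Of 33 measured, 30 were above 0 and the median was 0.55, yet only 2 were called higher and 0 lower. The called ones were SPAC29A4.17c, of the FUN14 family of mitophagy (367 to 910.2, 1.31), and isp6, a vacuolar protease gene (7815 to 18448, 1.24). The kinase gene atg1 was at 0.99, and atg16 went the other way at -0.77. The group's median against 0 h was 1.00 at 8 h and 1.08 at 48 h, above its value at 4 h.

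Ribosomal proteins were the largest group among the genes called lower. All 137 ribosomal protein genes had lower averages at 4 h than at 0 h, with log2 ratios between -2.18 and -0.37. Of 82 genes of the 60S subunit 58 were called lower and 0 higher (median -1.17), and of 55 of the 40S subunit 33 and 0 (median -1.12). These 91 genes made up 46.7% of the 195 coding genes called lower. The share of all 137 in the summed averages went from 13.7% to 6.46%. At 0 h 129 of the 137 had been above WT, and at 4 h 135 were below WT, with a median log2 of -0.78 against it. The 2 genes still above WT at 4 h were rpl4302 (4916 in WT and 5000.1 at 4 h) and rps1401, which lies wholly opposite aar2 (759 and 3147). Both were chosen after their values were seen.

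Single ribosomal protein genes varied around the common decrease. The lowest ratio belonged to rpl1603 (2554 to 562, -2.18), which lies wholly opposite apl1. Next came rpl1002 (12597 to 3522, -1.84), rpl2702 (11334 to 3540.4, -1.68), rps1502 (17846 to 5613, -1.67) and rps1402 (14990.1 to 4754, -1.66). In this species most ribosomal proteins are encoded by 2 or more gene copies, and the size of the decrease differed between copies of a protein. Over 55 such families the median gap between the extreme copies was 0.277, and in 17 it was 0.5 or more. All copies were called lower in 26 families, copies stood on both sides of the 2-fold line in 26, and no copy was called in 3. The widest gap was that of rpl10, where rpl1002 was at -1.84 and rpl1001 (39286 to 26740.4) at -0.55. The pair rpl35a and rpl35b followed at -1.53 and -0.37, then the rpl16 genes, with -1.30 for rpl1602 and -1.08 for rpl1601 beside rpl1603. Copies that are nearly identical can share reads, so the split between them is less certain than their sum.

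**Figure D4:**
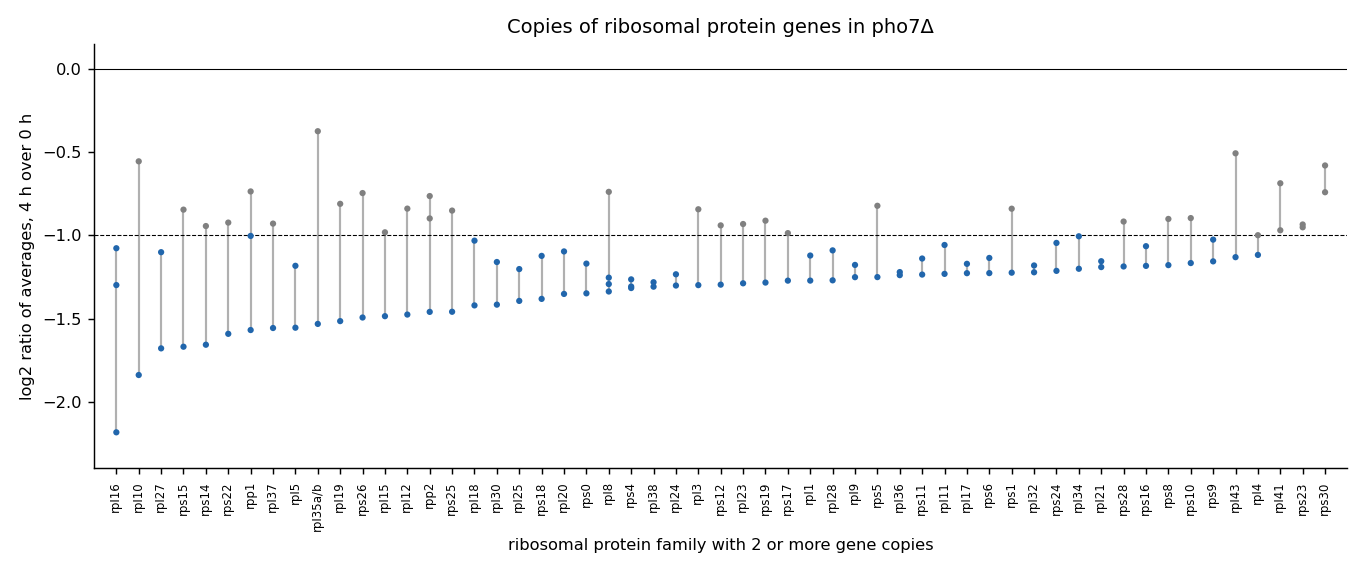
Log2 ratio of the averages at 4 h over 0 h in pho7Δ (vertical) for the gene copies of 55 ribosomal protein families, 1 point a gene, blue where 2-fold or more lower and grey otherwise, with a line joining the copies of a family. Every point is below 0, and the longest lines, in rpl10, rpl35 and rpl16, span more than 1 unit.

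Upstream of these genes lies a shared element, shown because, of the 6 motifs counted, its share differed most between genes called lower and all genes. The HomolD box, CAGTCAC on either strand, occurs in the 250 bases upstream of 121 of 133 ribosomal protein genes with a window (91%), of 92 of 171 coding genes called lower (53.8%) and of 220 of 4478 measured coding genes (4.91%). Among genes called lower that are not ribosomal it was found in 13 of 83 (15.7%), and among those called higher in 4 of 206 (1.94%). Below are the 120 bases before the annotated start, 5′ to 3′, from RefSeq's ASM294v3 with the box in capitals. They are given for the 4 largest decreases whose window overlaps no annotated mRNA, and for rpl1001 as the weakly responding copy of rpl1002. Overlap with noncoding RNAs was not checked. The windows lie at I:3744026-3744145 (+), III:1939117-1939236 (+), I:3430765-3430884 (-), I:1162659-1162778 (-) and II:2081361-2081480 (+).
rpl1002: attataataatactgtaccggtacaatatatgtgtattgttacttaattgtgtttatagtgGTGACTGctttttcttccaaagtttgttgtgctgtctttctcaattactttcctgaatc
rpl2702: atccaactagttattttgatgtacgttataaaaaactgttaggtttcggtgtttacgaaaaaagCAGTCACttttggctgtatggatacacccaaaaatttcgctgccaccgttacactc
rpl702: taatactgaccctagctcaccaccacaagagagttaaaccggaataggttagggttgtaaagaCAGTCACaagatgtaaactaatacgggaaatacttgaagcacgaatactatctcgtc
rps2201: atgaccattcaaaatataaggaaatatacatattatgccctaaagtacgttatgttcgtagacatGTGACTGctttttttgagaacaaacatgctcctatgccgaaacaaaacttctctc
rpl1001: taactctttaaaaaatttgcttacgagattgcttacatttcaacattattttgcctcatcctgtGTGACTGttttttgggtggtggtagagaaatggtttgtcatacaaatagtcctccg
The box begins 59, 56, 57, 55 and 56 bases before the start in this order, on the reverse strand (GTGACTG) in rpl1002, rps2201 and rpl1001. The genes rpl1002 and rpl1001, which differ most within a family, therefore both hold it at nearly the same distance. The box was found upstream of 79 of 88 ribosomal protein genes called lower (89.8%), so it does not separate called from uncalled members.

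Ribosome assembly and RNA polymerase I genes leaned lower, with few calls. Of 111 ribosome biogenesis genes 109 were below 0, with a median of -0.68, and 13 were called lower and 0 higher. Examples are rnp24 (1462 to 601, -1.28), the kinase gene rio1 (-1.27), lto1 (-1.17) and rpf2, which brings the 5S particle into the 60S precursor (-1.15). Of 15 RNA polymerase I genes 3 were lower and 0 higher (median -0.78). They were the largest subunit gene nuc1 (8217 to 3704, -1.15), rpa12 (-1.05) and ker1 (-1.01), and rpa2, the second largest subunit, was just short of the limit (-0.99). Among 18 RNA polymerase III genes 0 were lower and 1 was higher, namely maf1, which represses the polymerase (511 to 1214, 1.25). The subunit genes rpc11, rpc31 and rpc34 were at -0.95, -0.86 and -0.85.

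Few translation genes outside the ribosome were called. In the lists of translation factors (1 lower of 46, median -0.44), tRNA modification (4 lower of 40, -0.47) and aminoacyl-tRNA synthetases (0 of 37, -0.20) no member was called higher. Called lower were tif11, which encodes initiation factor eIF1A (8677 to 4143, -1.07), and the tRNA-modifying enzymes dus2 (-1.12), trm82 (-1.09), pus3 (-1.07) and trm11 (-1.07). Initiation factor genes tif5 and tif1 and elongation factor gene eft202 were at -0.92, -0.91 and -0.87, and the proline-tRNA ligase gene prs1 at -0.93. Of 74 mitochondrial ribosomal protein genes 0 were called, with a median of -0.15 (lowest mrp17 at -0.74). None was called among 35 proteasome genes (median 0.09, highest pre4 at 0.35) or 36 genes of oxidative phosphorylation (median 0.26, highest atp5 at 0.62). The decrease was thus largest for the cytoplasmic ribosome among these lists.

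Histone genes were all above 0, with a median of 0.73, and 1 of 11 was called, hht3, which encodes histone H3 (11505 to 23186, 1.01). The genes htb1, hhf1 and hta2 were at 0.95, 0.94 and 0.91. Of 13 S phase genes 1 was called, cdt2, a subunit of the ubiquitin ligase of S phase (864 to 1734, 1.01), with cdm1 at 0.93, cdc22 at 0.63 and psm3 at 0.51. Both hht3 and cdt2 sit on the limit and fall below it when all averages are scaled to equal totals or the median gene is set to 0. Of 13 Tf2 retrotransposon rows only 3 were measured and none was called, from -0.32 for Tf2-10 to 0.40 for Tf2-11.

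Outside the ribosome the largest decreases fell on genes of mixed function. SPAPB24D3.07c, a species-specific gene wholly opposite a noncoding RNA, went from 18853 to 3488 (-2.43), far below its WT average of 87216. The predicted 2-dehydropantoate reductase gene pan5, of pantothenate synthesis, went from 1294 to 277 (-2.22), SPCC737.04, of the UPF0300 family, from 5505 to 1304 (-2.08) and apt1, which salvages adenine, from 3821 to 932 (-2.04). Smaller ratios among the 12 largest decreases were those of imt2, a sphingolipid mannosyltransferase gene (-1.86), SPCC1235.17, annotated as dubious (-1.76), and SPBC1271.10c, a predicted transporter gene that neighbours tgp1 (-1.73). The other 5 are the ribosomal protein genes named above. Over all coding genes called lower, 104 are not ribosomal proteins.

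Noncoding RNAs were called more often than coding genes in both directions. SPNCRNA.935, which lies almost wholly opposite SPNCRNA.934, went from 982 to 30734 (4.97) and was at 4156 by 24 h. This was the largest ratio of a row listed as noncoding, but SPNCRNA.935 is annotated as a possible alternative untranslated region (UTR). Its reads may therefore belong to another transcript. Next were the antisense RNAs of SPBP4G3.03, a gene beside pho1 (18.5 to 281, 3.93), of SPAC10F6.14c (3.48) and of the histone gene hhf3 (3.38) and the intergenic SPNCRNA.1255 (3.32). On the lower side stood the antisense RNAs of wtf11 (274 to 34.9, -2.97), pfd1 (-2.96), ams2 (-2.43), cbp6 (-2.42, also annotated as a possible alternative UTR) and atg22 (-2.22). Several of these started far below WT already, as for ams2, whose antisense RNA had 8784 in WT and 935 at 0 h. The libraries were made with a stranded kit, but how strand was treated in counting is unknown here, so a value of an antisense RNA may hold reads of its partner.

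Genes and their antisense RNAs were also looked at as pairs. Of 321 pairs with both members measured, 18 had both called, 12 in opposite and 6 in the same direction, and the 6 were all higher. Where the antisense RNA was higher (37 pairs), the partner was called higher in 6 and lower in 6, and where it was lower (32 pairs), the partner was called higher in 6 and lower in 0. Antisense RNAs higher with a lower partner were those of rpl1002, rpl1801, btf3, imt2, sda1 and SPBC1652.02. Antisense RNAs lower with a higher partner were those of fbp1 (512 to 179 for the antisense RNA), dgc1 (131 to 31.5), SPBC23G7.13c, mag2, atd3 and SPAC13C5.04. With the antisense RNA higher, 16.2% of partners were called in each direction, and with the antisense RNA lower 18.8% were called higher, while among 252 pairs whose antisense RNA was not called 9.13% of partners were higher and 3.97% lower. These pairs were singled out after their values were seen, and no test was made of them.

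One such place, chosen after its values were seen, is rpl1002. Its antisense RNA SPNCRNA.933 went from 108.2 to 1057 (log2 3.29) while rpl1002 itself went from 12597 to 3522. By annotation SPNCRNA.935, a possible alternative UTR, starts on the other strand 128 bases away and points the opposite way. Both annotated RNAs thus leave the same short interval, and both were higher. The RNA opposite SPNCRNA.935, SPNCRNA.934, went from 1049 to 356. The interval between the annotated starts of the 2 divergent RNAs, I:3745650-3745777 on the forward strand of ASM294v3, is shown since it is the only stretch between them.
interval: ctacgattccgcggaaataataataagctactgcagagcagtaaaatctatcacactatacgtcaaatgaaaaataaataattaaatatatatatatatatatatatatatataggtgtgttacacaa
It holds a run of alternating t and a near its right end.

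Near the ends of chromosomes I and II many measured genes were called higher. Counting the 20 outermost measured coding genes at each end in RefSeq's order, 47 of 80 genes at these 4 ends were called higher (58.8%) and 3 lower. At the ends of chromosome III 6 of 40 were higher (15%), and among the other 4751 coding genes 199 (4.19%). The share at the ends is raised by the choice of measured genes, since 16 of the 47 reached the minimum of 100 only at 4 h. Among genes with 100 or more already at 0 h, 31 of 61 were higher at the ends of I and II (50.8%), 5 of 39 at those of III (12.8%) and 172 of 4708 elsewhere (3.65%). Of the 20 outermost coding genes at each end of I and II whether measured or not, only 21 of 80 were measured, so the 47 lie mostly further in. Of these 80, 10 were called higher (12.5%), and 6 of the 10 reached the minimum only at 4 h. In the same count 6 of 40 were higher at the ends of III (15%) and 4.73% of the 4990 coding genes away from all ends. At the ends of III 36 of the 40 were measured, so the shares of 12.5% and 15% rest on unlike bases. Among the measured genes of this count, 10 of 21 were higher at the ends of I and II and 6 of 36 at those of III. These 2 counts were added after seeing the data. Of the 47 genes first counted, there were 7 and 12 at the left and right ends of chromosome I and 14 and 14 at those of chromosome II. Of the 80 genes 9 are on the list of genes higher in WT in ePMGT with phosphate. Phosphate genes themselves belong to this set, since pho84, pho1, SPBPB2B2.06c and ecl3 lie at the right end of chromosome II with SPBPB2B2.01 and SPBPB2B2.05. SPAC869.04 and SPAC869.03c lie at the right end of chromosome I, where hry1, an HHE-domain gene chosen after its values were seen, went from 16.1 to 151 (3.23). At the left end of chromosome II lie alr2, the amino acid transporter gene aat1 (649 to 2946, 2.18) and aes1, of the PhzF family (1169.7 to 10587, 3.178), the last 2 also chosen after their values were seen. A few neighbours went down, with pan5 the lowest of the 80.

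**Figure D5:**
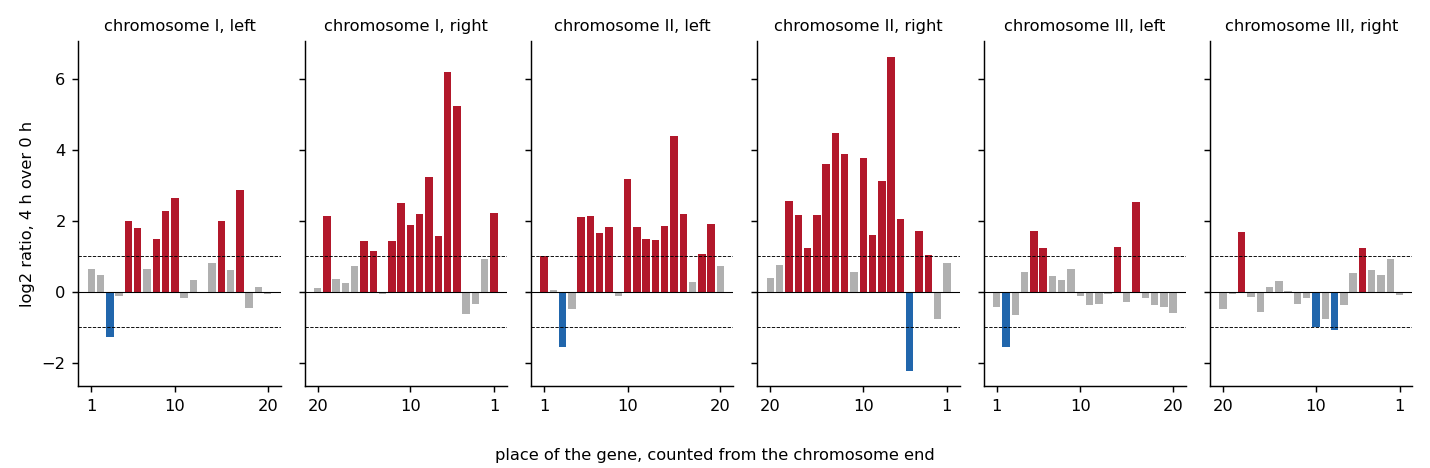
Log2 ratio of the averages at 4 h over 0 h in pho7Δ (vertical) for the 20 outermost measured coding genes at each chromosome end, in order of place counted from the end (1 is the outermost), red where 2-fold or more higher, blue where 2-fold or more lower, grey otherwise. Red bars fill 47 of the 80 places at the ends of chromosomes I and II and 6 of the 40 at those of chromosome III.

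Most differences of the first 4 h lasted. Of the 335 genes called higher, 307 were still 2-fold or more above 0 h at 8 h, 246 at 24 h and 233 at 48 h. For 99 of them the highest average of the course came at 8 h and for 79 at 48 h. A smaller set of 59 genes peaked at 4 h, and 49 of these were under 2-fold above 0 h by 24 h. Those 49 include alr2, dgc1, the 5-oxoprolinase genes SPAC11D3.14c and SPAC11D3.15, SPAC11D3.18c and the agmatinase gene SPAPB24D3.03. Also highest at 4 h, but still over 2-fold above 0 h at 24 h, were car1 (1927 at 24 h) and mmf2 (427 to 5039.8, then 1008), a gene of reactive intermediate clearance in mitochondria. In the mating list, mam1, mam2, mfm2, spk1 and rgs1 also peaked at 4 h. Of the 59, 13 are on the list of genes higher in WT in ePMGT with phosphate.

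Decreases were more often reversed in part. Of the 254 genes called lower, 89.4% were still 2-fold or more below 0 h by 8 h, 39% by 24 h and 46.5% by 48 h. Within this set 146 had their lowest average at 8 h. Ribosomal protein genes account for much of this shape, as 136 of 137 were lowest at 8 h and 134 were higher at 24 h than at 4 h. The median of the 60S genes against 0 h was -1.88 for 8 h, -0.48 for 24 h and -0.71 for 48 h. Ribosome biogenesis genes, by comparison, stayed near their low point, at -0.94, -0.77 and -0.82.

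Part of these genes differed from WT before phosphate was removed. Of the 335 genes called higher, 130 were 2-fold or more above WT at 0 h (38.8%, where 8.52% of all genes measured in that comparison were) and 45 were 2-fold or more below it (13.4%, where 12.1% of all were), and 18 of the 45 were at or above the WT average at 4 h, pho84, pho1 and tgp1 among them. Of the 254 called lower, 46 were 2-fold or more below WT at 0 h (18.1%) and 19 above (7.48%), 7 of which were at or below WT at 4 h. Genes that overlap another gene on the opposite strand over more than 50% of their length made up 120 of the 335 (35.8%) and 87 of the 254 (34.3%), and 1414 of all 5520 measured (25.6%).

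The other motifs counted were found less often than the HomolD box in genes called lower. The Atf1-Pcr1 element TGACGT, counted on both strands in the 250 bases upstream, was found for 7.28% of coding genes called higher and 5.34% of all measured coding genes with a window, the MBF element ACGCGT for 3.4% and 2.5%, the stress element AGGGGG for 7 of 206 genes and 90 of 4478, and the forkhead element GTAAACA for 10.7% and 14.6%. Among genes called lower TGACGT was found for 2.92%, ACGCGT for 3.51%, AGGGGG for 0 of 171 and GTAAACA for 20.5%.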

How the data were processed

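Poly(A)+ RNA of 3 cultures per group, which the study's methods call biological replicates, was made into stranded TruSeq libraries and sequenced as paired reads. Per the submitters' processing notes and the methods, the authors aligned reads with HISAT2 2.1.0 to ASM294v2, sorted them with SAMtools, counted them per gene with HTSeq 0.10.0 and normalized them with DESeq2. Whether counting used strand is unknown here. Antisense and overlapping genes are therefore uncertain, as are near-identical copies. The deposited signal is 1 average of normalized counts per gene and group. The deposited tables also hold columns of the authors' own comparisons (base mean, log2 fold change with its error, a test score, p-value and adjusted p-value), which were not used. Single-library depth was not examined. The averages summed to 1.83191e+07 at 0 h and 1.86459e+07 at 4 h.

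Log2 ratios of the averages were computed with averages under 1 set to 1, in Python 3.11.15 with pandas 2.3.3, numpy 2.4.6 and matplotlib 3.10.9, and the calculation was tested on simulated data. Tests on counts per library had been planned, and the files allowed only averages. The members and gene lists were chosen with earlier results of these data known. Genes named are the 12 largest per direction among coding and the 5 largest among noncoding genes, all members of the phosphate acquisition, polyphosphate, ecl, transcription factor, 19-gene and strain marker lists and up to 4 of each other list by size. Any other gene named was chosen after its values were seen. RefSeq (ASM294v3) matched 6834 of 6987 rows by systematic ID and gave neighbours, overlaps and sequences, with no coordinates carried between builds. Alternatives were other minimums and folds, a pseudocount of 10, 2 scalings and leaving out overlapping genes.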

Additional observations from a re-analysis of the deposited data

How the results depend on the processing

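No list median and no named gene changed sign under the alternatives run for it. A few list members and the median of all genes (0.01) lie within the shift of -0.03 from scaling to equal totals, under which 20 of 21 glycolysis genes and 4 of 5 uracil genes were above 0. With a minimum of 500, 213 genes were higher, and the later steps gave 116 genes called at 8 h, 33 at 12 h and 7 at 36 h. With a fold of 1.5, 783 genes were higher and 724 lower and 53 of the 40S genes were lower. With a fold of 4, 76 were higher and 16 lower, 1 of the 60S and 0 of the 40S genes were lower and 13 of the list higher in WT in ePMGT with phosphate were higher. Without genes lying over more than 50% of their length opposite another gene, an alternative chosen after seeing the data, 215 were higher and 167 lower, the phosphate acquisition median was 2.41 and that of the ePMGT list 0.84. Under each scaling cdt2 and hht3 lost and mas5 and rpa2 gained the 2-fold call, and with a pseudocount of 10 cdt2, ker1 and map2 lost it. No paired analysis was possible because the columns carry group averages with no replicate number, and for the same reason the edgeR and DESeq2 fits and leaving out single replicates were not run. The limits are therefore those of size alone. A 2-fold difference has no error attached to it, 1 deviating library could move an average, and ratios of genes that start near the floor, such as SPBPB2B2.06c, are the least certain.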
